A study of Mus musculus with 36 samples.

Results

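The desaturases and elongases that build unsaturated and long fatty acids were followed across 36 mouse livers. The 10 genes are the stearoyl-CoA desaturases Scd1 and Scd2, the front-end desaturases Fads1, Fads2 and Fads3, and the elongases Elovl1, Elovl2, Elovl3, Elovl5 and Elovl6. They were taken as the non-control probes whose gene name on the array equals one of these symbols, which gave 22 of 56605 probes and 10 of 37325 genes. Each gene was read from its brightest probe, and all 10 of these probes were well above background on every array.

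The study compared liver RNA of male C57Bl/6J mice that lack ATGL in white adipose tissue (AAKO) with that of control mice (CTRL). ATGL is the enzyme that takes the first fatty acid off stored triglyceride, so the comparison asks how the liver's expression differs when fat tissue lacks this step. Both genotypes were studied when fed freely, after a fast of 24 h, or fed and gavaged once with CL316243 at 3 mg/kg in carboxymethyl cellulose, a compound that activates the beta 3 adrenergic receptor of fat cells. Each of the 6 groups held 6 numbered replicates with 1 array each, taken here as 6 mice because the labels mention no pooling. All mice ate the same standard diet and were killed at ZT16, in the dark phase, and the treated mice had received the dose at ZT10. The fed groups carry another experiment label than the fasted and CL316243 groups, so comparisons with fed mice also compare experiments, and the part of each cannot be told apart. Below, a rise, fall, change or response against fed mice means such a difference only. The gavage is described for the CL316243 groups only. The Cre line or promoter behind the deletion, the genotype of the controls and the ages are not given in the sources used here, and liver signal does not check a deletion made in fat tissue.

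Desaturases put double bonds into fatty acyl-CoA chains and elongases carry out the condensing step that adds a pair of carbons, both in the endoplasmic reticulum. Scd enzymes make oleate and palmitoleate from saturated chains. Fads2, Elovl5, Fads1 and Elovl2 act in turn on the essential linoleic and alpha-linolenic acids to make arachidonic and docosahexaenoic acid, while Elovl6, Elovl1 and Elovl3 mainly extend saturated and monounsaturated chains. In liver, several of these genes are known targets of SREBP-1c, which insulin activates, of LXR and ChREBP, and of PPAR alpha, the receptor that fatty acids released from fat tissue can activate in the fasted liver.

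Levels below are on a log2 scale, with the 75th percentile of each array set to 0, and differences are log2 differences of group means from limma with wash batch as a covariate. A gene was called where its Benjamini-Hochberg adjusted p, taken over the 24251 genes tested, was under 0.05. On each array 33130 to 37200 probes stood well above background, and no spot was saturated. The 8 hepatocyte markers, Alb and Ttr among them, were well above background on every array, and their mean level lay between 8.02 and 8.56. The 6 adipocyte markers had mean levels between -3.99 and -2.21. In bulk tissue fewer cells of a type and less RNA per cell cannot be told apart. The arrays were washed in 2 batches, 3 and 3 of each group except 4 and 2 of AAKO CL316243, and the p-values measure the spread between these samples.

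In fed mice none of the 10 genes was called between the genotypes. When fasted, 5 of them were lower in AAKO livers and none was higher: Elovl3 by 8.67-fold, Elovl2 by 2.66-fold, Elovl5 by 2.08-fold, Fads2 by 1.77-fold and Fads1 by 1.42-fold. After CL316243 these 5 genes and Elovl6 were lower in AAKO livers, and Elovl1 was slightly higher. Scd1, Scd2 and Fads3 were called between the genotypes in none of the 3 states.

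The counts stand against a very different background in each state. In fed mice 0 of 10 genes were called by limma, 2 had an unadjusted p under 0.05 (Elovl1, 0.27, and Scd2, 0.52), and 0.0783% of all genes tested were called. When fasted, 5 of 10 were called and 49.3% of all genes, so this share is that of the array as a whole. All 5 were lower, while 28% of all genes were called lower and 21.3% higher, and the median difference was -0.37 over the 10 genes and -0.04 over all genes. The ranges of the 2 genotypes did not overlap for 5 of the 10 genes, and for 21.3% of all genes. After CL316243 the call was met by 7 of 10 genes and by 24.7% of all genes, 6 of the 10 being lower and 1 higher against 11.3% and 13.4% of all genes, with medians of -0.39 and 0.03. Of all calls after CL316243, 54.3% were higher, and 42.3% with the deposited value table. Ranges were apart for 3 of the 10 genes and for 11.5% of all genes. The CL316243 count fell when samples were left out: it was 4 without AAKO CL316243 replicate 5 and 4 without CTRL CL316243 replicate 3. Within each wash batch it was 2, in fits that hold fewer samples, so a lost call there does not show that a difference depends on a batch. The differences of the 7 called genes kept their sign under every alternative.

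**Figure D1:**
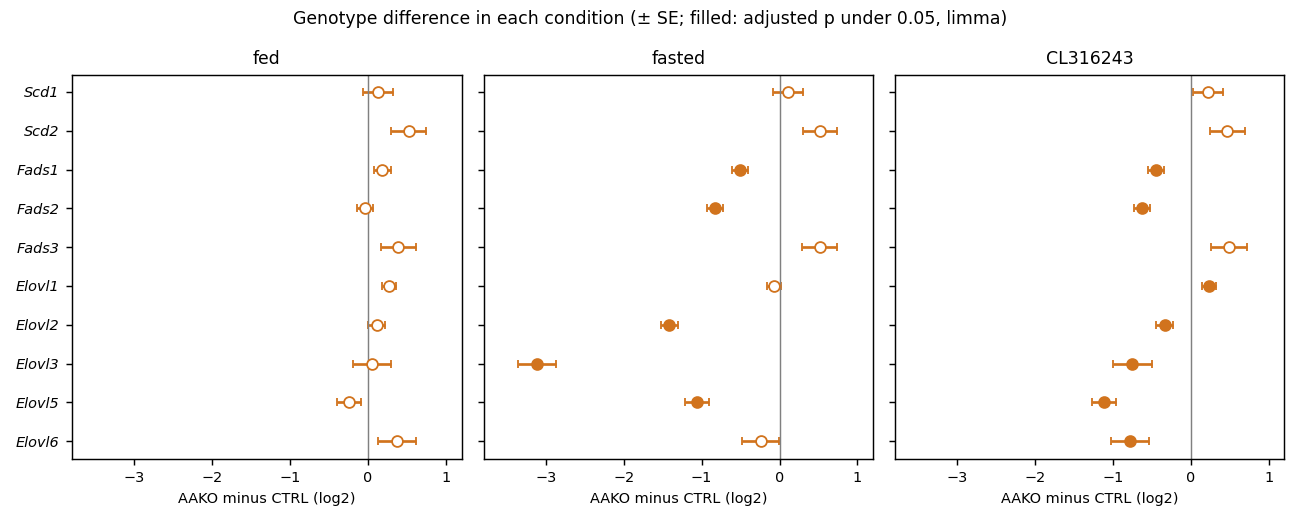
Difference between AAKO and CTRL livers for the 10 genes, in log2 units with SE, in fed, fasted and CL316243-treated mice (6 against 6 in each), with filled points where the adjusted p was under 0.05. Elovl3, Elovl2, Elovl5, Fads2 and Fads1 lie below 0 when fasted and after CL316243, and no point is filled in fed mice.

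**Figure D2:**
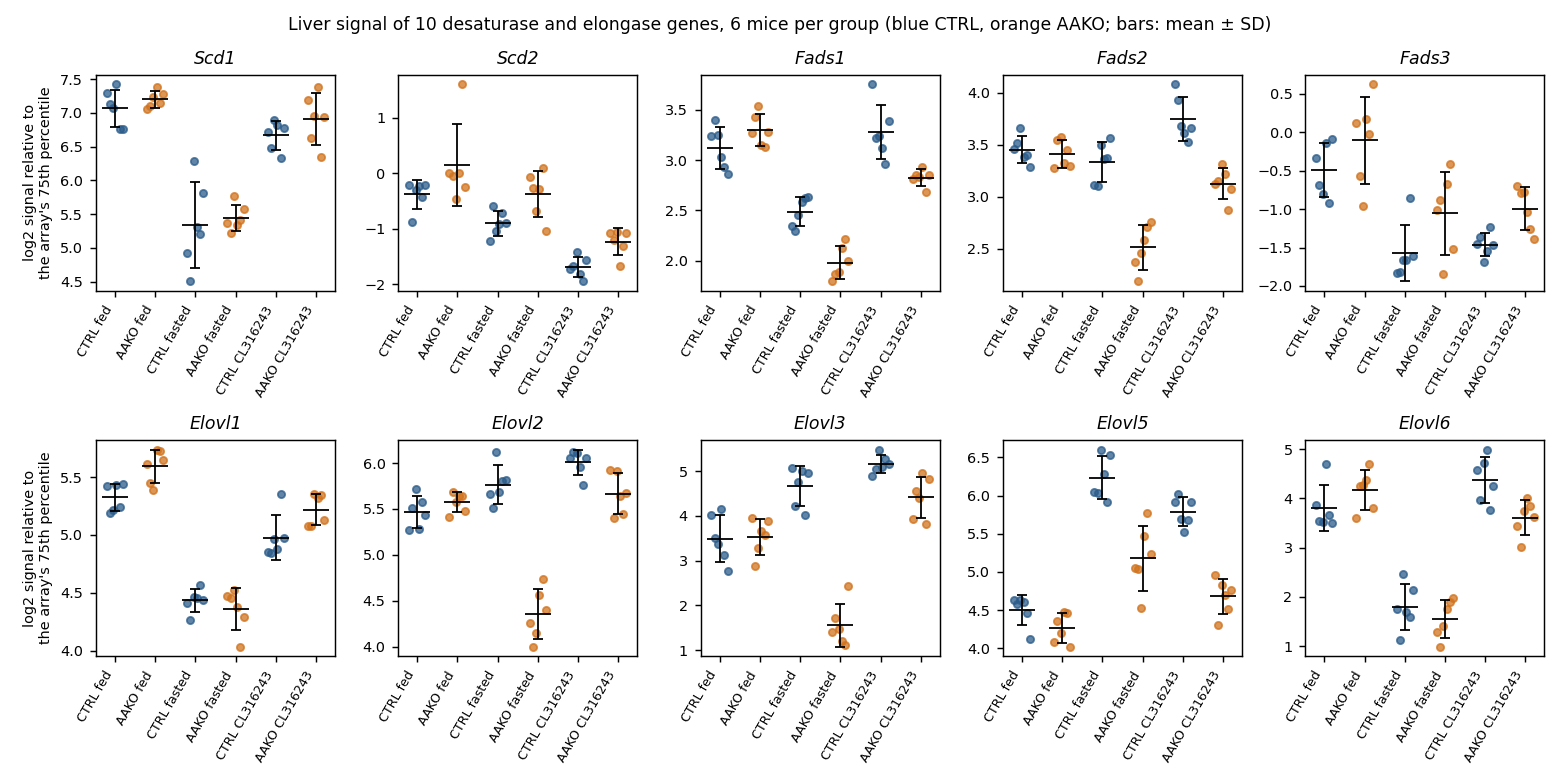
Level of each gene in every mouse, on the log2 scale with each array's 75th percentile at 0, with 1 panel per gene, 1 point per mouse and the mean with SD of each group of 6. The Elovl3 points of fasted AAKO mice lie below those of every other group, and the Scd1 and Elovl6 points of both fasted groups lie low.

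Scd1, the main stearoyl-CoA desaturase of liver, fell on fasting in both genotypes and was not called between them. In fed mice, its lowest, median and highest levels were 6.76, 7.10 and 7.42 in CTRL mice and 7.06, 7.20 and 7.38 in AAKO mice. In fasted mice, Scd1 stood at 4.51, 5.25 and 6.29 in CTRL mice and 5.22, 5.39 and 5.77 in AAKO mice. After CL316243, the Scd1 values were 6.34, 6.74 and 6.90 in CTRL mice and 6.34, 6.95 and 7.39 in AAKO mice. Every fasted mouse lay below every fed and every CL316243-treated mouse, while the genotypes overlapped in each state. Against fed mice, Scd1 was 3.32-fold lower in fasted CTRL mice, a difference of -1.73 ± 0.19 (SE, adjusted p = 1.12e-08). In fasted AAKO mice it was 3.38-fold lower, a difference of -1.76 ± 0.19 (SE, adjusted p = 2.13e-09). The genotype difference in fasted mice was 0.11, with a 95% interval of -0.27 to 0.49, and after CL316243 it was 0.22 (-0.17 to 0.60). The fasting response differed between the genotypes by -0.02 (-0.56 to 0.52), which was not called. Scd1 and Scd2 lie on chr19, and the brighter Scd1 probe is at chr19:44469387-44469446 on the minus strand (mm9 in the file headers). The array's other Scd1 probe, chr19:44471140-44471199, is listed on the plus strand, opposite to the first, and its fasting differences were -2.10 in CTRL and -2.08 in AAKO mice.

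Scd2, a stearoyl-CoA desaturase known mainly from brain and from newborn tissues, moved in another way: it fell most after CL316243. In fed mice, Scd2 levels had a lowest, median and highest value of -0.88, -0.27 and -0.21 in CTRL mice and -0.47, -0.02 and 1.61 in AAKO mice. When the mice were fasted, Scd2 values were -1.23, -0.90 and -0.59 in CTRL mice and -1.03, -0.28 and 0.09 in AAKO mice. After CL316243, Scd2 stood at -1.95, -1.70 and -1.43 in CTRL mice and -1.67, -1.14 and -1.06 in AAKO mice. All 12 treated mice lay below all 12 fed mice, and the genotypes overlapped in each state. Against the fed mice of the other experiment, Scd2 was 2.48-fold lower in treated CTRL mice, -1.31 ± 0.22 (SE, adjusted p = 5.99e-05). In treated AAKO mice it was 2.58-fold lower, -1.37 ± 0.22 (SE, adjusted p = 1.81e-05). The AAKO minus CTRL difference was 0.52 fed, 0.52 fasted and 0.47 after CL316243, none of them called, and its 95% interval in fasted mice was 0.08 to 0.96 (adjusted p = 0.0529). The fasting change was -0.52 ± 0.22 (SE, adjusted p = 0.0602) in CTRL mice, not called. In AAKO mice it was -0.52 ± 0.22 (SE, adjusted p = 0.0424), but it was -0.21 (adjusted p = 0.238) without AAKO fed replicate 5, whose level of 1.61 was the highest of its group, and it was 0.003 (adjusted p = 0.992) within wash batch 2. It was also not called without AAKO fasted replicate 3, 4 or 6. The genotype difference in fasted mice passed the threshold without AAKO fasted replicate 3 or 6 or CTRL fasted replicate 2, and under 6 other alternatives.

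Fads1, the delta-5 desaturase, and Fads2, the delta-6 desaturase, were lower in AAKO than in CTRL livers both fasted and after CL316243. For Fads1 in fed mice, the lowest, median and highest levels were 2.86, 3.13 and 3.39 in CTRL mice and 3.13, 3.27 and 3.54 in AAKO mice. In fasted mice, Fads1 stood at 2.30, 2.52 and 2.63 in CTRL mice and 1.79, 1.94 and 2.21 in AAKO mice. After CL316243, the Fads1 values were 2.96, 3.23 and 3.75 in CTRL mice and 2.68, 2.84 and 2.93 in AAKO mice. The genotypes overlapped when fed and were apart when fasted and after CL316243, and fasted AAKO mice were the lowest group of all. Fads1 was 1.42-fold lower in fasted AAKO mice, -0.51 ± 0.11 (SE, adjusted p = 1.76e-04), with differences of -0.65 and -0.36 in wash batches 1 and 2, and the call was lost in wash batch 2 alone (adjusted p = 0.0866). After CL316243 it was 1.36-fold lower, -0.45 ± 0.11 (SE, adjusted p = 0.00212), and -0.30 and -0.58 in the same batches, where it was called in neither. The fasting fall was -0.63 ± 0.11 (SE, adjusted p = 1.21e-05) in CTRL and -1.32 ± 0.11 (SE, adjusted p = 2.24e-12) in AAKO mice, and the difference between these falls was -0.69 ± 0.15 (SE, adjusted p = 5.38e-04), a call that was lost in wash batch 2 alone (adjusted p = 0.0557).

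For Fads2 in fed mice, the lowest, median and highest levels were 3.29, 3.43 and 3.66 in CTRL mice and 3.27, 3.39 and 3.58 in AAKO mice. In fasted mice, Fads2 stood at 3.11, 3.37 and 3.57 in CTRL mice and 2.19, 2.52 and 2.75 in AAKO mice. After CL316243, the Fads2 values were 3.53, 3.67 and 4.08 in CTRL mice and 2.87, 3.14 and 3.31 in AAKO mice. The genotypes overlapped when fed and were apart when fasted and after CL316243. Fads2 was 1.77-fold lower in fasted AAKO mice, -0.83 ± 0.10 (SE, adjusted p = 7.26e-08), and 1.54-fold lower after CL316243, -0.63 ± 0.10 (SE, adjusted p = 3.28e-05). Within wash batches 1 and 2 the fasted difference was -1.01 and -0.64, and the CL316243 difference -0.63 and -0.54, called in each. In CTRL mice the fasting change at this probe was -0.11 with a 95% interval of -0.32 to 0.09, and after CL316243 it was 0.30 ± 0.10 (SE, adjusted p = 0.0353). In AAKO mice the changes were -0.90 ± 0.10 (SE, adjusted p = 5.08e-09) when fasted and -0.29 ± 0.10 (SE, adjusted p = 0.0335) after CL316243. The CL316243 response thus differed between the genotypes, by an interaction of -0.59 ± 0.15 (SE, adjusted p = 0.00760), but this was called in neither wash batch alone (adjusted p = 0.170 and 0.212), and it was -1.16 with the mean of the Fads2 probes. The 2 CL316243 changes against fed mice were near the threshold and called in neither wash batch alone: the CTRL one was also not called without CTRL CL316243 replicate 1 or 2 or CTRL fed replicate 1, 4, 5 or 6, and the AAKO one not without AAKO CL316243 replicate 5 or 6 or AAKO fed replicate 2, 3 or 5.

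The array places 6 of the 10 genes on chr19, and the 3 Fads genes close together there. Several probes read Fads1 and Fads2, so the sequences that agree and disagree are shown here (mm9 positions as the array files give them, all lower case because no base is singled out). A_51_P364609 is the brightest Fads2 probe and spans 431 bases of the minus strand at chr19:10138750-10139180, so its 60 bases lie in separate blocks of the genome. A_66_P130115 at chr19:10163229-10163288 and A_55_P2729398 at chr19:10161035-10161094 lie further upstream on the same strand. A_55_P2897923 at chr19:10257644-10257703 and A_55_P2732843 at chr19:10261805-10261864 read Fads1 on the plus strand.

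Fads2 probe A_51_P364609: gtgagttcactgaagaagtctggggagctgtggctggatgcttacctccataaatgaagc
Fads2 probe A_66_P130115: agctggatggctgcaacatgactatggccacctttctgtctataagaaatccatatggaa
Fads2 probe A_55_P2729398: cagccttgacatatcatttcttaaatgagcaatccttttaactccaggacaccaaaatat
Fads1 probe A_55_P2897923: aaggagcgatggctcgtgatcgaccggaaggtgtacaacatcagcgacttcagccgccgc
Fads1 probe A_55_P2732843: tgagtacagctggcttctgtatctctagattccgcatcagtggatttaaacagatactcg

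All 5 Fads2 probes were called lower in AAKO mice, both fasted and after CL316243, but by unequal amounts. At A_55_P2729398, which the array lists for a cDNA clone, the fasted levels had a lowest, median and highest value of -0.21, 0.96 and 1.12 in CTRL mice and -2.10, -1.70 and -0.75 in AAKO mice. After CL316243 this probe stood at 2.47, 2.67 and 3.13 in CTRL mice and 0.56, 0.90 and 2.30 in AAKO mice. Its AAKO minus CTRL difference was -2.31 ± 0.26 (SE, adjusted p = 7.30e-09) fasted and -1.59 ± 0.26 (SE, adjusted p = 2.29e-05) after CL316243, and the response of CTRL mice to CL316243 was 1.76 ± 0.26 (SE, adjusted p = 7.55e-06). At A_66_P130115 the genotype differences were -0.84 fasted and -0.98 after CL316243. On fasting in CTRL mice, the probes A_55_P2739989 and A_65_P20641 were called lower (-0.50 and -0.47), where the brightest probe was not. For Fads1, A_55_P2897923 was lower in AAKO mice by a difference of -0.69 ± 0.10 (SE, adjusted p = 1.22e-06) fasted and -0.64 ± 0.10 (SE, adjusted p = 1.97e-05) after CL316243. A_55_P2732843, also listed for a cDNA clone, gave -0.04 ± 0.21 (SE, adjusted p = 0.903) and -0.23 ± 0.21 (SE, adjusted p = 0.484), and was not called. After CL316243 in CTRL mice 2 of the 3 Fads1 probes were called higher, and the brightest, at 0.16, was not. Averaged over the 3 probes, the CL316243 change of Fads1 in AAKO mice was -0.11 (adjusted p = 0.408), against -0.47 (adjusted p = 0.00104) at the brightest. Which transcripts each probe reads was not tested.

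**Figure D3:**
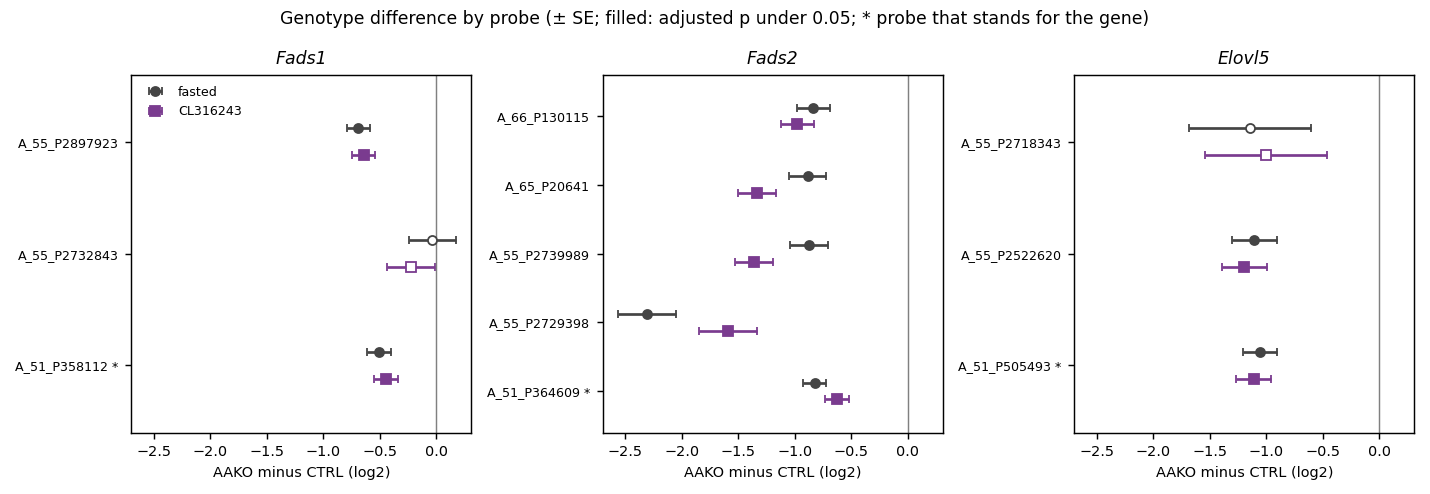
AAKO minus CTRL difference with SE for each probe of Fads1 (3 probes), Fads2 (5) and Elovl5 (3), with circles for fasted and squares for CL316243-treated mice, and an asterisk at the probe used for the gene. All 5 Fads2 probes lie below 0, with A_55_P2729398 lowest at -2.31 fasted, while Fads1 probe A_55_P2732843 lies at -0.04.

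Fads3, a Fads relative known to act on sphingoid bases and on trans-vaccenic acid, fell in both responses and was called between the genotypes in no state. In fed mice, Fads3 levels had a lowest, median and highest value of -0.92, -0.51 and -0.09 in CTRL mice and -0.96, 0.05 and 0.62 in AAKO mice. When the mice were fasted, Fads3 values were -1.84, -1.66 and -0.85 in CTRL mice and -1.85, -0.95 and -0.41 in AAKO mice. After CL316243, Fads3 stood at -1.69, -1.46 and -1.24 in CTRL mice and -1.39, -0.91 and -0.70 in AAKO mice. The genotypes overlapped in each state. Against fed mice, Fads3 was 2.11-fold lower in fasted CTRL mice, -1.08 ± 0.23 (SE, adjusted p = 2.23e-04). It was 1.93-fold lower in fasted AAKO mice, -0.95 ± 0.23 (SE, adjusted p = 4.99e-04). After CL316243 it was lower by 1.96-fold in CTRL and 1.82-fold in AAKO mice. Within wash batch 1 alone the CTRL fall on fasting and both falls after CL316243 were not called, and within wash batch 2 the AAKO fall after CL316243 was not. The genotype differences of 0.39 fed, 0.52 fasted and 0.49 after CL316243 were not called, the fasted one with a 95% interval of 0.07 to 0.96 and an adjusted p of 0.0588. That difference passed the threshold without AAKO fasted replicate 3 or 6 or CTRL fasted replicate 5, and under 4 other alternatives. At the other Fads3 probe, A_55_P1976097, the genotype differences were 0.146 fed, 0.198 fasted and 0.389 after CL316243, none of them called.

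Markers of several cell types, hepatocytes among them, moved beside Scd2 and Fads3. After CL316243 in CTRL mice, 4 of 6 Kupffer cell markers, 4 of 5 endothelial markers and 3 of 5 stellate cell markers were called lower, beside 12.8% of all genes, and none higher, with medians of -0.73, -0.60 and -0.42. The mean Kupffer marker level ranged from 1.40 to 2.72 in fed and from 0.25 to 1.91 in treated CTRL mice, and the mean endothelial level from 1.09 to 1.58 and from 0.18 to 1.02. In AAKO mice 5, 2 and 3 markers of the same lists were lower after CL316243, beside 15.7% of all genes, and none higher. On fasting 3 of 6 Kupffer cell markers were lower in CTRL and 4 in AAKO mice, beside 22.4% and 35.7% of all genes, and none higher, with medians of -0.79 and -0.89. The other 2 lists went both ways on fasting: 1 endothelial marker was higher and 1 lower in CTRL mice and 2 and 2 in AAKO mice, and 1 stellate cell marker was higher and 1 lower in CTRL mice and 2 and 1 in AAKO mice. None of these markers was below background on every array. Other lists moved too, hepatocyte, erythroid and bile duct markers among them. After CL316243 in CTRL mice 3 of 8 hepatocyte and 2 of 3 erythroid markers were lower and none higher, beside 12.8% of all genes. In treated AAKO mice 0 of 8 and 3 of 3 were lower and none higher, beside 15.7%. On fasting 3 of 5 bile duct markers were lower in each genotype and none higher, beside 22.4% and 35.7% of all genes. Of 3 erythroid markers 1 was lower in CTRL and 3 in AAKO mice on fasting, and none higher. Against fed mice, 3 of 8 hepatocyte markers were higher and 1 lower in fasted CTRL mice, and 3 and 4 in fasted AAKO mice. All genes called higher were 20.9% and 27.8%. Between the genotypes, no gene of the 9 marker lists was called in fed mice. In fasted mice 2 of 5 endothelial markers were called higher in AAKO livers, Lyve1 by 1.82, and 2 of 5 stellate cell markers higher, Reln by 0.50, beside 21.3% of all genes, while 0 Kupffer cell markers were called. Of the 8 hepatocyte markers 3 were higher and 4 lower in fasted AAKO livers, with Tat highest at 1.14, and of the 6 adipocyte markers 2 were higher and 1 lower, from Fabp4 at 0.94 to Cfd at -2.17. Lower and none higher were 2 of 5 bile duct, 2 of 3 pancreas, 1 of 3 erythroid and 1 of 6 lymphocyte markers, beside 28% of all genes. After CL316243 3 of 8 hepatocyte and 2 of 5 endothelial markers were higher in AAKO livers, beside 13.4% of all genes. Lower was 1 of 5 bile duct markers, beside 11.3% of all genes, and no other marker was called. In fasted mice the mean endothelial level ranged from 0.86 to 1.85 in CTRL and from 1.72 to 2.09 in AAKO mice. The part of these cells in the Scd2 and Fads3 values was not tested.

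Elovl2, which extends very long polyunsaturated chains on the way to docosahexaenoic acid, was lowest in fasted AAKO mice, whose 6 values lay below those of the other groups. In fed mice, Elovl2 levels had a lowest, median and highest value of 5.27, 5.47 and 5.72 in CTRL mice and 5.41, 5.61 and 5.69 in AAKO mice. When the mice were fasted, Elovl2 values were 5.51, 5.74 and 6.12 in CTRL mice and 4.00, 4.33 and 4.74 in AAKO mice. After CL316243, Elovl2 stood at 5.76, 6.06 and 6.13 in CTRL mice and 5.40, 5.66 and 5.93 in AAKO mice. Against fed mice, Elovl2 was slightly higher in fasted CTRL mice, 0.30 ± 0.11 (SE, adjusted p = 0.0317). It was 2.33-fold lower in fasted AAKO mice, -1.22 ± 0.11 (SE, adjusted p = 5.50e-11). These responses differed by -1.52 ± 0.16 (SE, adjusted p = 1.95e-08). The CTRL rise was not called in either wash batch alone, with the array median as the scale, without CTRL fasted replicate 3, 5 or 6 or without CTRL fed replicate 1, 4 or 6. The genotype difference in fasted mice was -1.41 ± 0.11 (SE, adjusted p = 1.30e-11), and -1.73 and -1.10 within wash batches 1 and 2. After CL316243 it was -0.34 ± 0.11 (SE, adjusted p = 0.0283), a call that was lost in each wash batch alone, and when any of AAKO CL316243 replicates 2, 4 and 5 or CTRL CL316243 replicates 2 and 3 was left out. The genotype difference was larger when fasted than after CL316243, by an interaction of -1.08 ± 0.16 (SE, adjusted p = 5.73e-06).

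Elovl5, which extends the products of Fads2, was higher in fasted and in CL316243-treated than in fed mice, and less so in AAKO mice. In fed mice, Elovl5 levels had a lowest, median and highest value of 4.13, 4.59 and 4.63 in CTRL mice and 4.02, 4.27 and 4.47 in AAKO mice. Fasted mice had Elovl5 values of 5.91, 6.17 and 6.60 in CTRL mice and 4.52, 5.14 and 5.77 in AAKO mice. After CL316243, Elovl5 stood at 5.52, 5.80 and 6.02 in CTRL mice and 4.31, 4.73 and 4.95 in AAKO mice. On average the CTRL mice were higher in each state than the AAKO mice, but the fed difference of -0.244 was not called (adjusted p = 0.806). The ranges were apart when fasted and after CL316243. Against fed mice, Elovl5 was 3.32-fold higher in fasted CTRL mice, 1.73 ± 0.15 (SE, adjusted p = 1.19e-10). It was 1.89-fold higher in fasted AAKO mice, 0.92 ± 0.15 (SE, adjusted p = 4.33e-06). After CL316243 it was 2.44-fold higher in CTRL mice, 1.29 ± 0.15 (SE, adjusted p = 3.99e-07). The genotype difference was -1.06 ± 0.15 (SE, adjusted p = 9.68e-07) fasted and -1.11 ± 0.16 (SE, adjusted p = 2.45e-06) after CL316243, and within wash batches 1 and 2 it was -1.42 and -0.70 fasted and -1.11 and -1.07 after CL316243. Both responses were smaller in AAKO mice, by interactions of -0.81 (adjusted p = 0.00398) and -0.87 (adjusted p = 0.00773). The fasting interaction was -0.44 and not called (adjusted p = 0.269) within wash batch 2, and -1.26 with the mean of the Elovl5 probes. That mean includes the dim probe A_55_P2718343, well above background on 6 arrays of fasted CTRL mice. In fasted AAKO, fed CTRL and fed AAKO mice it was so on 4, 1 and 2. This probe passed the filter only through the group where it was high, so the -1.26 adds nothing to the result. The CL316243 interaction was called in neither wash batch alone (adjusted p = 0.151 and 0.141). In AAKO mice the CL316243 change was 0.42 ± 0.16 (SE, adjusted p = 0.0378) at the brightest probe. Averaged over the 3 Elovl5 probes it was -0.15 (adjusted p = 0.695), a sign set by the dim probe A_55_P2718343 at -1.166. That probe was well above background on 2 fed and 0 treated AAKO arrays, so this mean adds nothing either. Probe A_55_P2522620, well above background on all 6 arrays of each group, had AAKO means of -2.80 fed and -2.50 treated. The change at the brightest probe was not called in either wash batch alone, or without AAKO CL316243 replicate 1, 3, 4 or 6 or AAKO fed replicate 1, 3 or 6.

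Because several of the 10 genes are known targets of SREBP-1c, LXR, ChREBP and PPAR alpha, and Elovl5, Elovl6 and Fads2 moved differently, the promoters of these 3 are shown. RefSeq promoters (GRCm38.p6, another build than the probes) were matched by symbol for Fads2, Fads3, Elovl1, Elovl2, Elovl5 and Elovl6, 8 start sites in all. The reference used had no promoter for Scd1, Scd2, Fads1 and Elovl3, so these were not searched. Each sequence runs from 250 bases before the start site to 50 after it, 5′ to 3′ on the gene's strand: Elovl5 at chr9:77917115-77917414 (plus), Elovl6 at chr3:129532136-129532435 (plus) and Fads2 at chr19:10101454-10101753 (minus). Capitals mark the motifs found on either strand.

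Elovl5 promoter: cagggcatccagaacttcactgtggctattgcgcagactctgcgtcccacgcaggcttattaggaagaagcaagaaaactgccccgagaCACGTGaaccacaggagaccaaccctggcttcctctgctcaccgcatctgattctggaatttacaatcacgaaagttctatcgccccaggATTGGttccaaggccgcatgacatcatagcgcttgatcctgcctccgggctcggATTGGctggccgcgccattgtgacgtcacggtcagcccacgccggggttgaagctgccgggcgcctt
Elovl6 promoter: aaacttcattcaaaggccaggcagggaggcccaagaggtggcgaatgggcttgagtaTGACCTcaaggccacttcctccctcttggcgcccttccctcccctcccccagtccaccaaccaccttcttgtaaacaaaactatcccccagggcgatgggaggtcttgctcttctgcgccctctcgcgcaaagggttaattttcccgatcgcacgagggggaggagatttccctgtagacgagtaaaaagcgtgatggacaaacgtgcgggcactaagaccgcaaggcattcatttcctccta
Fads2 promoter: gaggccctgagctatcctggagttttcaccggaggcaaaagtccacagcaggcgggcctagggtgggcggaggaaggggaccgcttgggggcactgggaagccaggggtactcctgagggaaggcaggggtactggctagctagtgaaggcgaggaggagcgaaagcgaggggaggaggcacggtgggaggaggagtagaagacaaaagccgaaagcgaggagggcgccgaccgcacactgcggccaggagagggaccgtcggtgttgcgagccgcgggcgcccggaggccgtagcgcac

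The Elovl5 promoter held the E box CACGTG, a letter pattern bound by USF and other basic helix-loop-helix factors, at position -161 from the start site, and the NF-Y box CCAAT on the minus strand at -71 and -17. The Elovl6 promoter held the hexamer AGGTCA, bound by nuclear receptors, on the minus strand at -193, and the Fads2 promoter held none of the motifs searched. Over both strands of all 32851 promoters, CACGTG was found in 7.15%, CCAAT in 37.4% and AGGTCA in 16.3%. The SREBP core TCACNCCAC was found in 1.24% of all promoters and in 0 of the 8, and direct repeats of AGGTCA with a spacing of 1 base (DR1) or 4 bases (DR4) in 0.0396% and 0.0152%, also in 0 of the 8. For patterns this rare, 0 of 8 does not set these promoters apart from others. Every DR1 and DR4 also counts as the hexamer. A match describes letters in this window and is not a site of binding.

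Elovl3, which makes saturated and monounsaturated chains of great length and is known for its daily rhythm in liver, had the largest genotype difference of the 10 genes in fasted mice. In fed mice, Elovl3 levels had a lowest, median and highest value of 2.76, 3.44 and 4.16 in CTRL mice and 2.88, 3.61 and 3.95 in AAKO mice. Fasted mice had Elovl3 values of 4.02, 4.86 and 5.08 in CTRL mice and 1.11, 1.44 and 2.43 in AAKO mice. After CL316243, Elovl3 stood at 4.90, 5.13 and 5.48 in CTRL mice and 3.82, 4.48 and 4.97 in AAKO mice. The fasted genotypes were apart, and they overlapped when fed and after CL316243. Against fed mice, Elovl3 was 2.26-fold higher in fasted CTRL mice, 1.18 ± 0.25 (SE, adjusted p = 2.05e-04). It was 3.95-fold lower in fasted AAKO mice, -1.98 ± 0.25 (SE, adjusted p = 2.16e-08). The responses thus ran in opposite directions and differed by -3.16 ± 0.35 (SE, adjusted p = 3.86e-08). The genotype difference in fasted mice was -3.12 ± 0.25 (SE, adjusted p = 8.96e-12), with -2.70 and -3.53 in wash batches 1 and 2.

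After CL316243 Elovl3 was higher than in fed mice in both genotypes. The difference was 3.17-fold in CTRL mice, 1.66 ± 0.25 (SE, adjusted p = 9.61e-06). It was 1.82-fold in AAKO mice, 0.86 ± 0.25 (SE, adjusted p = 0.00737), and there called in neither wash batch alone. Treated AAKO mice were lower than treated CTRL mice by a difference of -0.75 ± 0.25 (SE, adjusted p = 0.0239). That call was lost in each wash batch alone and without AAKO CL316243 replicate 1 or 5 or CTRL CL316243 replicate 3. The genotype difference was larger when fasted, by an interaction of -2.36 ± 0.35 (SE, adjusted p = 4.55e-06).

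Elovl6, which takes palmitate to stearate and is a classical partner of fatty acid synthase, fell on fasting in both genotypes and was lower in AAKO mice after CL316243. In fed mice, Elovl6 levels had a lowest, median and highest value of 3.50, 3.60 and 4.70 in CTRL mice and 3.60, 4.27 and 4.70 in AAKO mice. In fasted mice, the Elovl6 values were 1.12, 1.72 and 2.46 in CTRL mice and 0.99, 1.58 and 1.97 in AAKO mice. After CL316243, Elovl6 stood at 3.76, 4.42 and 4.99 in CTRL mice and 3.02, 3.68 and 4.01 in AAKO mice. All fasted mice lay below all fed and treated mice, and the genotypes overlapped in each state. The fasting fall was -2.01 ± 0.24 (SE, adjusted p = 3.90e-08) in CTRL mice and -2.62 ± 0.24 (SE, adjusted p = 3.90e-11) in AAKO mice. After CL316243 the genotype difference was -0.78 ± 0.24 (SE, adjusted p = 0.0162), a call that was lost in each wash batch alone and without CTRL CL316243 replicate 4. Against fed mice the Elovl6 difference after treatment was 0.58 in CTRL and -0.58 in AAKO mice, neither called (adjusted p = 0.0795 and 0.0682), but the difference between these responses was called, -1.15 ± 0.34 (SE, adjusted p = 0.0237). That call was lost without CTRL CL316243 replicate 4 and in each wash batch alone. The CTRL change passed the threshold without CTRL CL316243 replicate 5 or CTRL fed replicate 4, and the AAKO change without AAKO CL316243 replicate 4 or AAKO fed replicate 1. In fasted mice the genotype difference was -0.24, with a 95% interval of -0.71 to 0.23.

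Elovl1, which makes the very long saturated chains of sphingolipids, fell on fasting by 1.85-fold in CTRL mice and 2.36-fold in AAKO mice. In fed mice, Elovl1 levels had a lowest, median and highest value of 5.19, 5.33 and 5.44 in CTRL mice and 5.39, 5.63 and 5.73 in AAKO mice. In fasted mice, the Elovl1 values were 4.27, 4.45 and 4.57 in CTRL mice and 4.03, 4.41 and 4.53 in AAKO mice. After CL316243, Elovl1 stood at 4.84, 4.92 and 5.35 in CTRL mice and 5.08, 5.23 and 5.35 in AAKO mice. All fasted mice lay below all others, and the genotypes overlapped in each state. The fasting differences were -0.89 ± 0.09 (SE, adjusted p = 1.19e-09) in CTRL and -1.24 ± 0.09 (SE, adjusted p = 1.61e-13) in AAKO mice, and the AAKO fall was larger by an interaction of -0.35 ± 0.13 (SE, adjusted p = 0.0314). This interaction was not called in either wash batch alone, with the array median as the scale, without the filter on dim probes, with slide as a factor, or without AAKO fasted replicate 5 or 6, AAKO fed replicate 4 or 5, CTRL fasted replicate 5 or CTRL fed replicate 2 or 3. After CL316243 Elovl1 was higher in AAKO mice by 0.24 ± 0.09 (SE, adjusted p = 0.0490), at the edge of the threshold. The call was lost in each wash batch alone, and without AAKO CL316243 replicate 3, 4 or 5 or any CTRL CL316243 replicate but 5, and under 8 other alternatives, and the gene's second tested probe A_55_P2022861 gave 0.25 ± 0.10 (SE, adjusted p = 0.0560).

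Set side by side, the responses to fasting and to CL316243 differed among the 10 genes. On fasting in CTRL mice the elongases Elovl5, Elovl3 and Elovl2 rose while Elovl6, Scd1, Fads3, Elovl1 and Fads1 fell. In AAKO mice Elovl5 alone rose and the other 9 fell. Of these, the Scd2 fall was not called without AAKO fed replicate 5 (-0.21) or within wash batch 2 (0.003). After CL316243 in CTRL mice Elovl3, Elovl5, Elovl2 and Fads2 were higher than in fed mice, and Scd2, Fads3 and Elovl1 were lower. In treated AAKO mice only Elovl3 and Elovl5 of the 10 were called higher than in fed mice, and Scd2, Fads3, Fads1, Elovl1 and Fads2 lower. The probes of a gene did not all share these directions. Over probes the change ran from -0.466 to 0.444 for Fads1, where 2 of 3 were called lower. It ran from -0.845 to 0.206 for Fads2, with 4 of 5 lower, and from -1.166, at the dim probe, to 0.418 for Elovl5, with 1 of 3 higher. Each pair of responses shares the fed mice of its genotype as controls.

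On fasting, 8 of 10 genes were called in CTRL mice, beside 43.3% of all genes, 3 higher (all genes 20.9%) and 5 lower (all genes 22.4%). In AAKO mice 10 of 10 were called, beside 63.5%, 1 higher (all genes 27.8%) and 9 lower (all genes 35.7%). The Scd2 call was lost without single arrays, AAKO fed replicate 5 among them, and the count was 9 to 10 with 1 array left out. The median change of the 10 genes was -0.57 in CTRL and -1.23 in AAKO mice, against -0.02 and -0.09 over all genes. The fasting response differed between genotypes for 6 of 10 genes, all lower in AAKO mice, beside 33.9% of all genes and 19.4% lower, and for 3 within wash batch 2. Of all calls on fasting in CTRL mice 48.3% were higher, and 37.8% with the array median as the scale.

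After CL316243, 7 of 10 genes were called in CTRL mice, beside 23.3% of all genes, 4 higher (all genes 10.4%) and 3 lower (all genes 12.8%). In AAKO mice 7 of 10 were called, beside 31.4%, 2 higher and 5 lower, where all genes gave 15.7% and 15.7%. The medians of the 10 genes were 0.23 and -0.35, against -0.03 and -0.01 over all genes. Within wash batch 1 the CL316243 counts were 3 in CTRL and 3 in AAKO mice, and within wash batch 2 the AAKO count was 1. The CL316243 response differed between genotypes for 4 of 10 genes, all lower in AAKO mice, beside 10.9% of all genes and 4.52% lower, though for 0 within either wash batch. Between the fasted and the CL316243 state the genotype effect differed for 2 of 10 genes, Elovl2 and Elovl3, both lower, beside 32.3% of all genes and 19.6% lower.

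The fasted and the CL316243 groups come from the same experiment and were compared directly. In CTRL mice 7 of 10 genes were called, beside 36.8% of all genes (19.2% higher and 17.6% lower). Elovl6 (-2.59), Scd1 (-1.33), Fads1 (-0.79), Elovl1 (-0.54) and Fads2 (-0.41) were lower when fasted, and Scd2 (0.79) and Elovl5 (0.45) higher. In AAKO mice 9 of 10 were called, beside 59.9%, 2 higher and 7 lower where all genes gave 26.2% and 33.8%, with Elovl3 (-2.85) and Elovl2 (-1.32) among the 7 that were lower. Within wash batch 1 the CTRL count was 4. Of all calls, 52.2% were higher in CTRL mice (39.1% with the array median as the scale) and 43.6% in AAKO mice (31.4% with normexp and 58.1% with the deposited table). The Elovl5 call in CTRL mice was lost in each wash batch alone, with the array median as the scale and without CTRL fasted replicate 3 or 6 or CTRL CL316243 replicate 4.

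**Figure D4:**
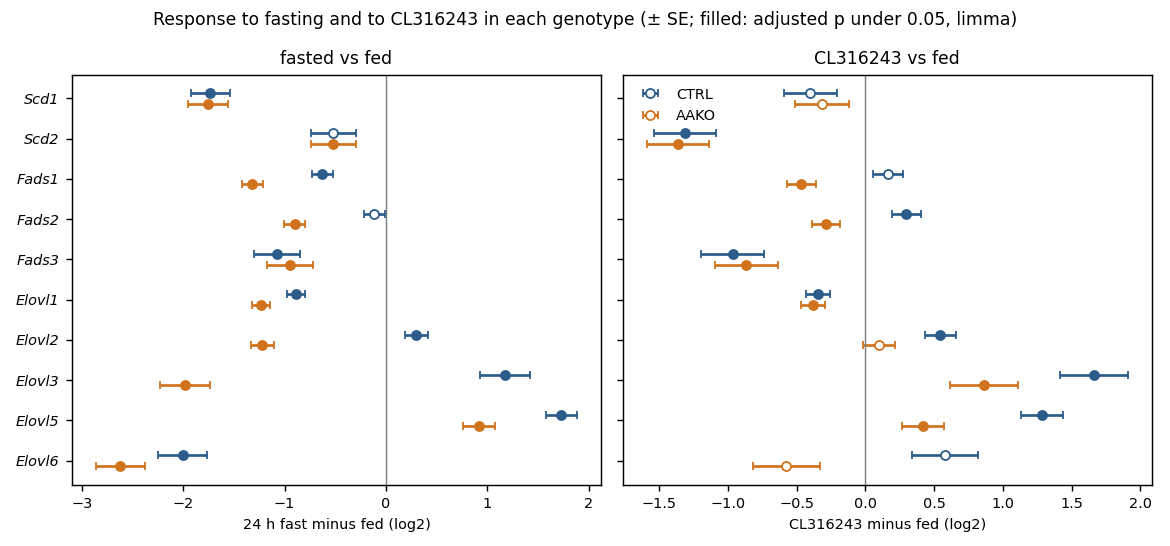
Change from fed to fasted and from fed to CL316243 in log2 units with SE for the 10 genes, in CTRL (blue) and AAKO (orange) mice, 6 mice per group. For Elovl3 and Elovl2 the fasting change lies above 0 in CTRL and below 0 in AAKO mice, while for Scd1 the points nearly coincide.

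Partner enzymes and neighbouring pathways were counted in the same fits, beside medians of -0.04 fasted and 0.03 after CL316243 over all genes, of which 21.3% were called higher and 28% lower when fasted, and 13.4% higher and 11.3% lower after CL316243. Of 11 tested genes of the elongation cycle and its electron supply, 7 were lower and none higher in fasted AAKO mice, with a median of -0.37. Hsd17b12, the ketoacyl reductase that follows the elongases, differed by -0.91. After CL316243 4 were lower and none higher, with Hacd3, a dehydratase of the cycle, at -0.57. Of the 12 genes of peroxisomal chain shortening, the last step on the way to docosahexaenoic acid, 12 were lower in fasted AAKO mice and 8 after CL316243, with medians of -1.39 and -0.54. Ehhadh, the peroxisomal bifunctional enzyme, differed by -3.58 when fasted, and Acaa1b, a peroxisomal thiolase, by -1.31 after CL316243. Of 20 PPAR alpha targets 16 were lower and 1 higher when fasted, and 17 lower and 0 higher after CL316243, with medians of -1.64 and -0.92. Fgf21, a hormone of the fasted liver, was lowest in both states at -5.48 and -4.58, and Angptl4, an inhibitor of lipoprotein lipase, was the one higher gene at 0.82.

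The genes of fatty acid synthesis, which share SREBP-1c and ChREBP as known regulators with Scd1 and Elovl6, split by state. Of 8, 5 were higher and 3 lower in fasted AAKO mice, from Thrsp at 2.18 to Me1 at -0.99. After CL316243 0 were higher and 5 lower, with Acly, which makes cytosolic acetyl-CoA, at -1.53. Of 17 cholesterol synthesis genes 10 were higher and 2 lower when fasted, beside 21.3% and 28% of all genes, from Pmvk, a kinase of the mevalonate pathway, at 3.06 to Hmgcs1, the synthase at its start, at -1.15. After CL316243 4 were higher and 2 lower, beside 13.4% and 11.3%, from Mvd at 1.27 to Sc5d at -0.48. Of 14 acyl-CoA synthetases and phospholipid remodelling genes 2 were higher and 6 lower when fasted, with Acsl4, which prefers arachidonic acid, at 1.39 and Acsl1 at -1.19. After CL316243 the counts were 1 and 6, with Acsl4 at 0.48 and Acsl1 at -1.64. Of 6 related desaturases and elongases 2 were higher and 1 lower when fasted, with Elovl7 at 0.79 and Scd4 at -0.52, and only Scd3, at 0.81, was called after CL316243.

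Among 17 regulators 7 were higher and 4 lower in fasted AAKO mice, where all genes gave 21.3% and 28%, and 5 and 5 after CL316243, where all genes gave 13.4% and 11.3%. After CL316243 they ran from Mlx, the partner of ChREBP, at 0.76 to Pparg at -1.31. Srebf1, which encodes SREBP-1, had a mean level of 6.48 ± 0.30 (SD, n = 6) in fed and 2.96 ± 0.47 in fasted CTRL mice, and of 3.33 ± 0.11 in fasted AAKO mice, a genotype difference of 0.37 that was not called. After CL316243 Srebf1 also differed from fed mice, by -2.00 in CTRL and -1.56 in AAKO mice, both called. In the same comparisons Scd1 (-0.401 and -0.315) and Elovl6 (0.579 and -0.575) were not called. Insig1, which holds SREBP in the endoplasmic reticulum, was higher by 1.93 in fasted AAKO mice. Nr1h3, which encodes LXR alpha, differed by -0.61 and Ppara by -0.57 in the same mice, and Ppara by -1.21 after CL316243. In fed mice 0 genes were called in 6 of these 8 lists, and 1 each among PPAR alpha targets (Vnn1) and acyl-CoA synthetases and remodelling genes (Mfsd2a, a transporter of docosahexaenoic acid in lysophospholipid form).

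**Figure D5:**
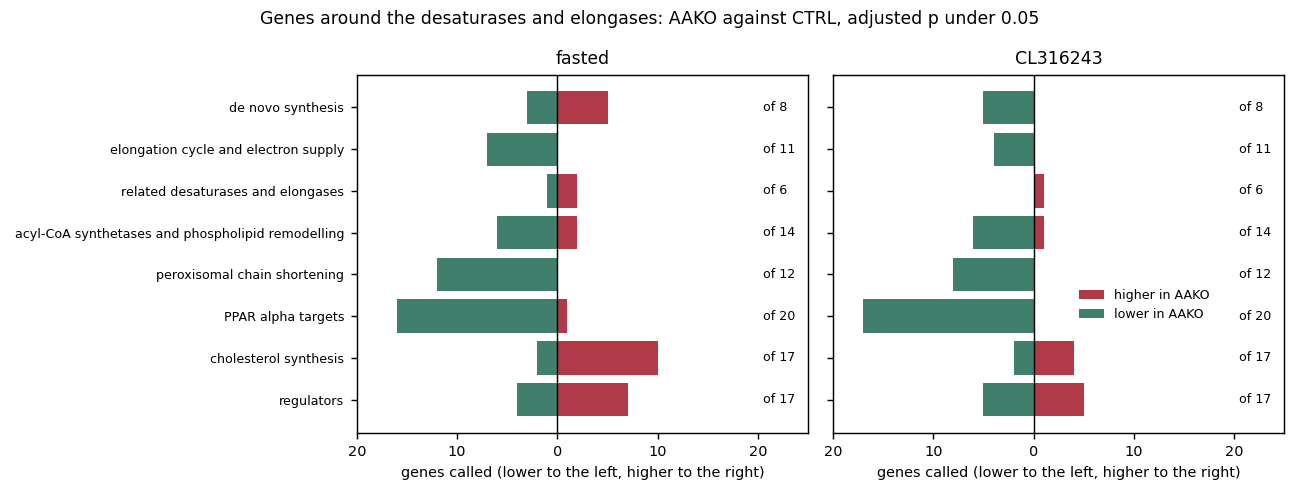
Number of genes called higher (red) and lower (green) in AAKO than in CTRL livers in each of the 8 pathway lists, in fasted and in CL316243-treated mice, out of the genes tested in each list. Peroxisomal chain shortening is lower for all 12 genes when fasted, and fatty acid synthesis shows both directions when fasted and only lower genes after CL316243.

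The 3 genes whose pattern over the 36 arrays was most like a member's are given by Pearson's r, as a description, since these values share the 6 groups and the array scaling. Scd1 was most like Klk1b8 (r = 0.93), Klk1b3 and a locus without a gene symbol, and Scd2 like Epb41l2 (0.86), Adgra2 and Colec10. Fads1 was most like Shmt2 (0.95), Galm and the citrate carrier Slc25a1. Fads2 was most like Hadh (0.94), an enzyme of mitochondrial beta oxidation, Mettl7b and Bdh1. Fads3 was most like Evc2 (0.85), Npc2 and Evc. Elovl2 was most like Bdh1 (0.94), an enzyme of ketone bodies, Cald1 and Amt. Elovl5 was most like Rtf2 (0.92), a transcript without a symbol and the acyl-CoA thioesterase Acot2. Elovl3 was most like Hsd3b7 (0.92), Spata22 and Paqr9, and Elovl1 like Ciao2b (0.94), 4833439L19Rik and Abcb10. Elovl6 was most like a probe that carries only an array name (0.98), then Acaca (0.95), the carboxylase that starts fatty acid synthesis, and Pygl (0.94). With the group means taken out, r between pairs of the 10 genes over the 36 arrays ran from -0.51 for Fads1 with Elovl1 to 0.73 for Fads1 with Fads2. It was 0.70 for Elovl2 with Elovl5, 0.67 for Fads2 with Elovl2 and 0.60 for Scd1 with Elovl6, but 0.007 for Fads2 with Elovl3, -0.40 for Elovl1 with Elovl2 and -0.43 for Fads2 with Elovl1.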

How the data were processed

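Liver RNA (200 ng per sample) was labelled with Cy3 and hybridised to 1-colour Agilent arrays, and per the file headers the intensity values were extracted by the authors with Agilent Feature Extraction 10.10.1.1 on probes placed on mm9. The deposited value table, which is on a log2 scale by its match to the scanner values (r at least 0.99957 with the same array), has a normalization that is not given in the sources used here, beyond limma in the submitters' processing notes, and served as an alternative. Its column medians lay between 6.88 and 7.01.

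From these files, control spots and outlier spots (0.127%) were left out, the background-subtracted intensity was put on a log2 scale and the 75th percentile of each array was subtracted. Probes well above background on at least 5 of 6 arrays of 1 group were kept, each gene was read from its probe of highest mean, and 24251 of 37325 genes were tested. limma 3.58.1 in R 4.3.3 fitted the 6 group means with wash batch as a covariate, and p-values were adjusted by Benjamini-Hochberg over all genes tested, with 0.05 as the threshold. Values given for single probes come from a separate fit of the same kind, with p-values adjusted over the 36550 probes that passed the filter. The 95% intervals are 1.96 SE to each side and not adjusted. The number of arrays limits the precision. Gene symbols were updated through accessions in RefSeq for 1535 of 56605 probes. The fit was tested on simulated data that were already scaled and in which few probes changed, so that test does not cover the choice of scaling. The 10 genes, the pathway lists and the marker lists were chosen with earlier results of these data known. Beside the 10 genes, the text names the called genes of highest and lowest difference in each pathway list for the genotype differences described, genes of the regulator list, and the 3 genes most like each member by Pearson's r. Alternatives covered background correction, scaling, filters, probes, samples in the fit, batch, slide and single arrays.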

Additional observations from a re-analysis of the deposited data

Results flagged for a closer look

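In 6 of 60 groups of 6 mice, 1 mouse lay far from the others by Dixon's 95% criterion, where chance gives about 1 in 20. Scd2 stood at -0.88 in CTRL fed replicate 2, with the nearest of its group at -0.43, and at 1.61 in AAKO fed replicate 5, with the nearest at 0.003. Fads3 stood at -0.85 in CTRL fasted replicate 5, whose group otherwise lay at -1.61 or lower. Elovl1 was 5.35 in CTRL CL316243 replicate 5, with the nearest at 4.97. Elovl5 was 4.13 in CTRL fed replicate 6, with the nearest at 4.46. Elovl6 was 4.70 in CTRL fed replicate 4, with the nearest at 3.87.

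A response that differed between the genotypes was called in 12 of 30 tests of the difference itself by limma. Of all genes, 33.9% were called for fasting against fed (19.4% lower) and 10.9% for CL316243 against fed (4.52% lower). For fasted against CL316243 the share was 32.3% (19.6% lower). These tests share groups, so the 12 are not separate results. For fasting against fed the differences were -0.69 for Fads1, -0.78 for Fads2, -0.35 for Elovl1, -1.52 for Elovl2, -3.16 for Elovl3 and -0.81 for Elovl5. For CL316243 against fed they were -0.63 for Fads1, -0.58 for Fads2, -0.87 for Elovl5 and -1.15 for Elovl6. The genotype difference was lower when fasted than after CL316243 by -1.08 for Elovl2 and -2.36 for Elovl3. Within single wash batches the 4 of CL316243 against fed were called in neither, Elovl1 on fasting in neither, and Fads1 and Elovl5 on fasting not in batch 2. In all 12 the AAKO response lay below the CTRL response. In Elovl2 and Elovl3 fasting gave changes of opposite sign in the genotypes.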

How the results depend on the processing

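Of 3360 values of 120 gene differences under the alternatives, 3176 kept their side of the threshold, 129 lost a call, 53 gained one and 2 were called values that changed sign. Of the 3176, 88 changed sign with neither value called, such as Elovl6 between the fasted genotypes, whose values ran from -0.61 to 0.13. The called values that changed sign were Scd2 on fasting in AAKO mice, from -0.52 to 0.003 within wash batch 2, and Elovl5 after CL316243 in AAKO mice, from 0.42 to -0.15 with the mean of its probes, 1 of them dim. The Elovl5 mean took its sign from the dim probe, well above background on 2 fed and 0 treated AAKO arrays. That mean adds nothing to the result. Within wash batch 1 alone the count of called genes fell from 7 to 2 for genotype after CL316243, from 7 to 3 for CL316243 in CTRL mice, from 7 to 3 for CL316243 in AAKO mice, from 7 to 4 for fasted against CL316243 in CTRL mice and from 4 to 0 for the CL316243 interaction. Within wash batch 2 alone it was 2 for genotype after CL316243, 1 for CL316243 in AAKO mice, 0 for the CL316243 interaction and 3 of 6 for the fasting interaction. Each batch holds fewer samples.

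Leaving out 1 array at a time, the count ranged from 4 to 7 for genotype after CL316243, 5 to 7 for genotype when fasted and 0 to 0 when fed. It ranged from 7 to 9 and from 9 to 10 for fasting in CTRL and AAKO mice, from 6 to 8 and from 5 to 7 for CL316243, from 6 to 7 and from 9 to 9 for fasted against CL316243, and from 5 to 6, 3 to 5 and 2 to 3 for the interactions of fasting, CL316243 and fasted against CL316243.

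Replicate numbers did not pair the samples: 5 of 36 arrays correlated best with their own number. With the replicate number as a block, 116 of 120 differences kept their call, Elovl1 between genotypes after CL316243 (adjusted p = 0.0559) and Elovl5 after CL316243 in AAKO mice (0.0584) lost it, and Elovl6 after CL316243 gained it in CTRL (0.0445) and AAKO mice (0.0364).

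Scaling moved the share of higher calls among all genes by over 10 points in some comparisons beyond those given above: with the deposited table from 52.6% to 66.7% for genotype when fed, from 58.4% to 44.1% for the CL316243 interaction and from 39.3% to 54.9% for the interaction of fasted against CL316243. The median over all genes for fasted against CL316243 in AAKO mice was -0.08, and 0.05 with that table. The causes were not tested.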
